A study of Mus musculus with 8 samples.

Results

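The proteasome is the protease that degrades ubiquitin-tagged proteins. Its 20S core is a barrel of stacked alpha and beta rings, and the beta subunits encoded by Psmb5, Psmb6 and Psmb7 carry the active sites. The 19S cap recognises ubiquitin, removes it and unfolds the substrate with a ring of ATPases, while dedicated chaperones assemble both parts and separate activators and an inhibitor bind the ends of the barrel. In oocytes and early embryos the ubiquitin-proteasome system is known for clearing maternal proteins as development passes to the embryonic genome.

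Proteasome genes were taken from the deposited table by symbol: names that start with Psm, a letter from a to g and a number, or Psmf1, without a hyphen. This gave 50 of the 34976 symbols used, carried by 229 transcript rows. 49 of them are proteasome subunits, assembly chaperones, activators, an inhibitor, or tissue-specific or duplicated forms of these. The remaining symbol, Psmc3ip, fits the naming pattern but encodes a meiotic recombination factor that is no part of the proteasome. Its opposite-strand neighbour Mlx overlaps 21.2% of its exonic bases. Its level was 14.8 ± 1.54 FPKM in controls and 12.5 ± 3.33 FPKM after Med13 morpholino (SD, n = 4 each).

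The embryos were of CF-1 mice, an outbred stock. Both groups were injected at the early 1-cell stage and collected at the late 2-cell stage: the controls (Scr-MO) received a scrambled morpholino, and the other group (Med13-MO) a morpholino against Med13, placed by the labels at its transcription start site. A morpholino is an antisense oligomer that binds RNA and blocks translation or splicing, so it may leave the mRNA level as it was and makes a knockdown, not a deletion. Each library came from a pool of 40 embryos, and each group had 4 separate collections. Med13 itself stood at 41.1, 38.5, 38.2 and 47.5 FPKM in Scr-MO replicates 1 to 4 and at 43.9, 39.4, 41.7 and 43.8 FPKM in Med13-MO replicates 1 to 4. The groups overlapped, and this mRNA level does not test the labels.

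FPKM scales the fragments of a transcript by its length and by the size of the library. Library totals read back from the spacing of low values were 31378977 to 48050262 fragments, if the spacing stands for 0.5 of a fragment. The files do not settle that, and with a spacing of 1 fragment all totals and fragment numbers given here would be 2 times as large. Scr-MO replicate 2 stood apart in its composition: the top 10 genes held 20.8% of its summed FPKM. That share was 13.0% to 13.8% in the remaining controls and 16.4% to 17.5% in the Med13-MO libraries. The 12 fixed oocyte and early embryo markers all had a mean above 1 FPKM, and 9 of them were called higher (75.0%, against 9.29% of all genes tested). Their summed level was 678 to 821 FPKM in Scr-MO and 1070 to 1210 FPKM in Med13-MO. A large part of it was Dppa3, at 557 ± 58.2 and 536 ± 119 FPKM, which was not called. The part of these markers in the results below was not tested. Markers of other cells were low: 7 of 9 immune, 8 of 8 cumulus and granulosa, and 4 of 4 listed testis and sperm markers had a mean below 1 FPKM. Their summed levels overlapped between the groups, at 3.48 to 6.37 and 4.02 to 4.92 FPKM for immune markers, 0.543 to 2.08 and 0.738 to 1.18 FPKM for cumulus markers, and 0.257 to 1.12 and 0.340 to 0.875 FPKM for sperm markers, in Scr-MO and Med13-MO.

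After Med13 morpholino 7 proteasome genes passed the test, and they lay in different parts of the machine. The inhibitor gene Psmf1 and the catalytic subunit gene Psmb6 rose. The assembly chaperone gene Psmg3, the alpha ring genes Psma5 and Psma4, the activator gene Psme1 and the 19S scaffold gene Psmd1 fell. Of the 50 members, 43 had a mean of at least 1 FPKM over the 8 libraries and were tested with limma on log2(FPKM + 1) together with all 11755 such genes. The 7 called members are 16.3% of those tested, at a Benjamini-Hochberg adjusted p below 0.05 over all genes. Of these 7, Psmg3 passed the filter on the mean through the control group alone, and its call held with no filter. Over all genes tested 17.1% were called, 9.29% as higher and 7.81% as lower, so the proteasome genes were called about as often as any gene. The groups did not overlap in 6 of the 43 members (14.0%), 2 higher and 4 lower, against 21.6% of all genes, 10.4% higher and 11.1% lower. The median log2 fold change was -0.099 for the 43 members and -0.057 for all genes. In pooled embryos, fewer embryos carrying an RNA and less of it in each cannot be told apart.

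**Figure D1:**
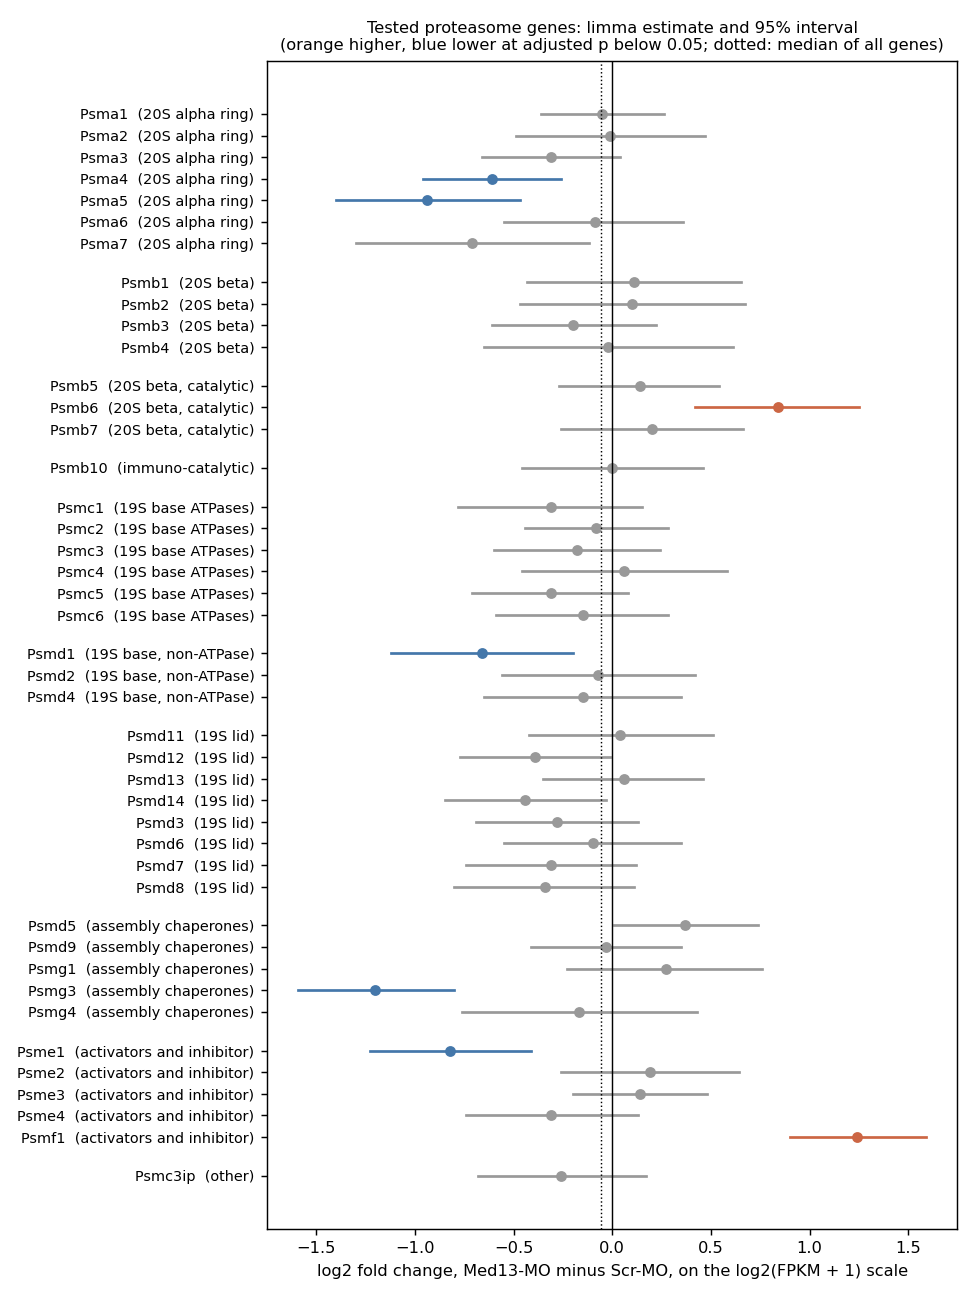
Log2 fold change of each tested proteasome gene (x axis, Med13-MO minus Scr-MO on the log2(FPKM + 1) scale) with its 95% limma interval, grouped by role on the y axis. Psmf1 (1.24) and Psmb6 (0.84) lie above 0 and Psmg3 (-1.20), Psma5, Psme1, Psmd1 and Psma4 below it, while most intervals cross 0.

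The sequences just upstream of the start sites are shown for the genes with the largest rises (Psmf1, Psmb6) and falls (Psmg3, Psma5), and for Psma6 and Psmd12, whose promoters hold the motif that stood out in the count below. Psma6 has another RefSeq start site, at 55384222, which is not shown and has no match to that motif near it. Each stretch is the 150 bases before a RefSeq start site on GRCm38.p6, written 5′ to 3′ on the strand of the gene. Capitals mark matches to the searched motifs on either strand.
Psmf1, chr2:151741311-151741460, minus strand: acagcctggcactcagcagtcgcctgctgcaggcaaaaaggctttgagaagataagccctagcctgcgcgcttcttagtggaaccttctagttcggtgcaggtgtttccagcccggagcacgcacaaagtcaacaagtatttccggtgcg
Psmb6, chr11:70525207-70525356, plus strand: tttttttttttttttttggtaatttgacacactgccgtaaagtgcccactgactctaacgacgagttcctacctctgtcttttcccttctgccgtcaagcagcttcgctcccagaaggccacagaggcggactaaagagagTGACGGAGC
Psmg3, chr5:139826895-139827044, minus strand: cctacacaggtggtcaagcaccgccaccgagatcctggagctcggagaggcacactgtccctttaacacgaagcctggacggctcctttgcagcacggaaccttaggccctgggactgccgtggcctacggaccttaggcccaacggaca
Psma5, chr3:108256776-108256925, plus strand: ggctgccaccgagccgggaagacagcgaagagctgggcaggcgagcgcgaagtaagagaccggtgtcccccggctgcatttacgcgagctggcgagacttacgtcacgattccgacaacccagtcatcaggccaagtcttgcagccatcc
Psma6, chr12:55398675-55398824, plus strand: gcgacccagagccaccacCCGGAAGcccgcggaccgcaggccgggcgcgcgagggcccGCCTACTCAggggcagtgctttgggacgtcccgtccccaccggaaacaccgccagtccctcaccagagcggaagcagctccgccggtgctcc
Psmd12, chr11:107479378-107479527, plus strand: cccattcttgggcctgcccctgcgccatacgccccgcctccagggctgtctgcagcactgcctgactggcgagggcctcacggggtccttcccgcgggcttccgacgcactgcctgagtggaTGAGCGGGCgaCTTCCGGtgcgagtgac

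Promoter motifs were counted in windows from 250 bases before to 50 bases after each RefSeq start site, on both strands. Of the 50 members, 42 had such a window, 45 windows in all. The core CCGGAAG, bound by ETS factors, was in 16 of the 45 windows (35.6%) and in 8.9% of all 32851 promoters. The antioxidant-response core TGANNNNGC, a form of the element through which NFE2L1 raises proteasome genes in mammals, was in 26 windows (57.8%) against 41.3% of all promoters. The CCAAT box was in 15 windows (33.3%) against 37.4%. In 0 of the 45 windows did matches of different motifs overlap. Among the called members, TGANNNNGC was in the windows of Psmb6, Psma4, Psma5 and Psmd1, CCGGAAG in that of Psmg3, and CCAAT in none of the 7. Among the 30 tested and uncalled genes with a window, 17 held TGANNNNGC, 14 CCGGAAG and 12 CCAAT. In Psmb6 the TGANNNNGC match ends at the last base before the start site. The matches in Psma5 and Psmg3 lie 9 and 5 bases after their start sites, outside the stretches printed.

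The 20S alpha ring forms the outer gate of the barrel. All 7 of its fold changes were below 0, from -0.94 to -0.01 with a median of -0.308, and 2 of the 7 genes passed the test. Over all genes tested, 6522 of 11755 fold changes were below 0 and 7.81% were called lower, and 29 of the 43 tested members were below 0. Psma5 stood at 15.6, 11.1, 19.6 and 21.3 FPKM in Scr-MO replicates 1 to 4 and at 6.29, 7.78, 7.98 and 10.8 FPKM in Med13-MO replicates 1 to 4. Every Med13-MO library was below every control, although the highest of them lay close to control replicate 2. The fall was -0.94 ± 0.21 (log2, SE; limma adjusted p = 0.0128), from a mean of 16.9 ± 4.55 to 8.22 ± 1.90 FPKM (SD, n = 4 each). Psma5 (chromosome 3, 108256926 to 108279974, plus strand, GRCm38) has near-identical processed pseudogenes, Gm8394 and Gm12989, at 98.634% and 97.548% identity over 952 and 734 bases. They were listed at means of 0.736 and 0.988 FPKM, and reads may have been divided between the copies in a way that no source used here states.

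Psma4 stood at 30.7, 27.5, 30.9 and 34.7 FPKM in the controls and at 19.2, 17.5, 18.2 and 25.2 FPKM after Med13 morpholino, in the order of the replicates. Its groups did not overlap, and the fall was -0.61 ± 0.16 (log2, SE; limma adjusted p = 0.0231). The call was lost without Scr-MO replicates 3 or 4 (adjusted p = 0.061 and 0.0644) or Med13-MO replicates 2 or 3 (0.0855 and 0.0701). Psma7 overlapped between the groups, at 18.1, 13.1, 22.5 and 22.7 FPKM in controls and 6.02, 11.4, 11.9 and 18.0 FPKM in Med13-MO. Its fold change of -0.71 ± 0.27 (log2, SE) did not pass (limma adjusted p = 0.0930). It passed with sample weights (0.0045), without Scr-MO replicate 2 (0.0484) or without Med13-MO replicate 4 (0.0259). With sample weights 36.9% of all genes were called.

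Psma3 had the highest FPKM of the members, summed over 9 transcript rows. It stood at 85.4, 72.5, 94.3 and 76.0 FPKM in controls and 56.7, 63.4, 67.3 and 76.9 FPKM in Med13-MO. Its groups overlapped through Med13-MO replicate 4 (-0.31 ± 0.16, log2, SE; limma adjusted p = 0.203). With sample weights its adjusted p was 0.0335. A pseudogene, Gm13835, is identical to it over 685 bases and was listed at a mean of 15.2 FPKM, so the level of Psma3 is uncertain. For Psma1, Psma2 and Psma6 the fold changes lay between -0.09 and -0.01.

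The catalytic beta subunits cut after different residues. In the textbook assignment, Psmb6 encodes beta1 with caspase-like activity, Psmb7 beta2 with trypsin-like activity and Psmb5 beta5 with chymotrypsin-like activity. Psmb6 stood at 13.6, 8.58, 13.8 and 11.9 FPKM in the controls and at 17.0, 21.8, 22.5 and 27.4 FPKM after Med13 morpholino. All 4 Med13-MO libraries were above all 4 controls, and the rise was 0.84 ± 0.19 (log2, SE; limma adjusted p = 0.0127), with means of 12 ± 2.43 and 22.2 ± 4.30 FPKM (SD, n = 4 each).

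Psmb5 stood at 32.0, 27.4, 31.2 and 25.5 FPKM in controls and at 22.3, 32.3, 36.8 and 38.8 FPKM in Med13-MO. The control values lay inside the Med13-MO range. Its fold change was 0.14, with a 95% interval of the fold from 0.83 to 1.46 (limma adjusted p = 0.648). Psmb7 stood at 25.6, 18.5, 26.2 and 24.0 FPKM in controls and at 19.5, 27.2, 24.2 and 40.8 FPKM in Med13-MO, where replicate 4 was the highest. Its fold interval ran from 0.83 to 1.58 (limma adjusted p = 0.552), so neither gene is shown to have kept its level. Psmb6 (chromosome 11, 70525367 to 70527858, plus strand, GRCm38) was the lowest of the 3 constitutive catalytic genes in each of the 8 libraries, but stood closer to the other two after Med13 morpholino. By group mean it ranked 26 among the 50 members in controls and 16 in Med13-MO.

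Ratios within a library do not depend on its scaling. Psmb6 to Psmb5 was 0.425, 0.313, 0.443 and 0.465 in Scr-MO replicates 1 to 4 and 0.759, 0.673, 0.611 and 0.707 in Med13-MO replicates 1 to 4. Psmb6 to Psmb7 was 0.464 to 0.532 in controls and 0.672 to 0.928 in Med13-MO. Neither of these ratios overlapped between the groups. Psmb7 to Psmb5 did overlap, at 0.674 to 0.939 and 0.658 to 1.05. So did Psma4 to Psma3, at 0.328 to 0.457 in controls and 0.27 to 0.339 in Med13-MO. Ratios of called genes draw on the values behind their calls and are no separate support for them.

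**Figure D2:**
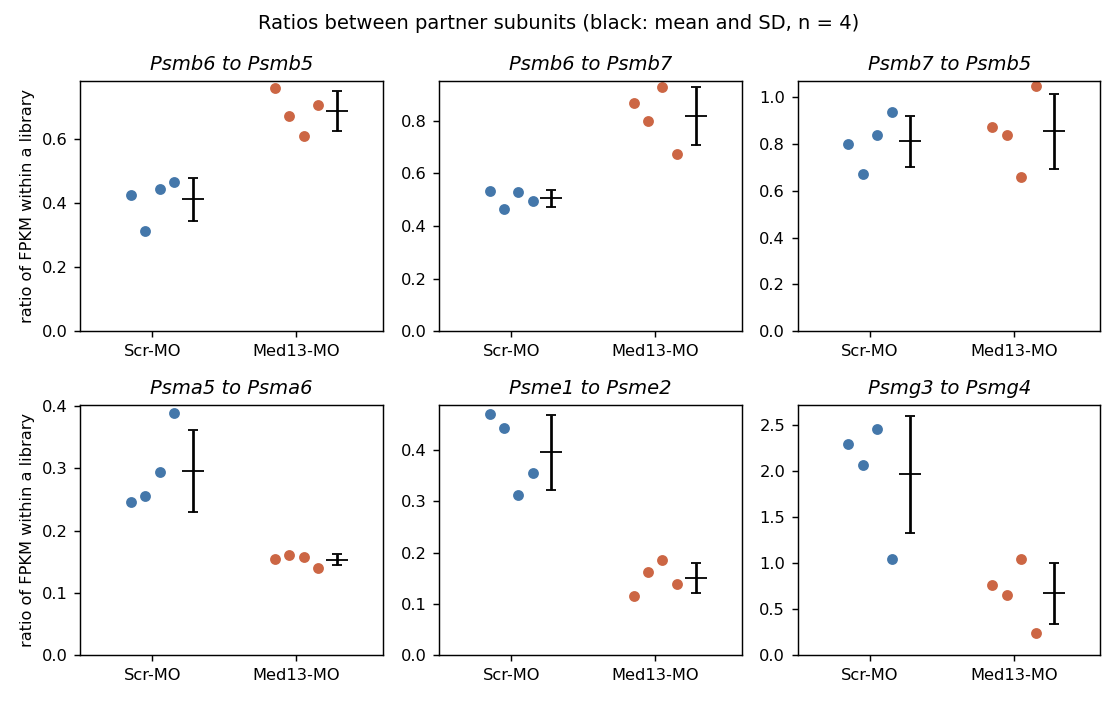
Ratio of FPKM between 2 proteasome genes within each library (y axis) in the 2 groups (x axis), with 1 point per library and the mean and SD in black (n = 4). The ratios of Psmb6 to Psmb5, Psmb6 to Psmb7, Psma5 to Psma6 and Psme1 to Psme2 are apart between the groups, Psmg3 to Psmg4 nearly meets at 1.04, and Psmb7 to Psmb5 overlaps.

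The non-catalytic beta genes Psmb1, Psmb2, Psmb3 and Psmb4 gave no call, with fold changes from -0.20 to 0.11 (log2). Over all 14 constitutive 20S genes, 1 was called higher and 2 lower (21.4%). Of all genes tested 17.1% were called, 9.29% as higher and 7.81% as lower. Summed FPKM of the alpha ring was 242 ± 32.6 in controls and 196 ± 39.8 in Med13-MO, and of the 7 constitutive beta genes 172 ± 28.7 and 195 ± 58.9 (SD, n = 4 each), overlapping in both cases.

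The immunoproteasome replaces the catalytic subunits with Psmb8, Psmb9 and Psmb10, which interferon induces in other cells, and the thymoproteasome uses Psmb11 in thymic epithelium. Psmb10 was the only one of these to pass the filter on low values, at 3.55, 1.70, 3.11 and 3.66 FPKM in controls and 1.92, 3.95, 3.16 and 2.93 FPKM in Med13-MO. The ranges lay on each other (fold interval 0.73 to 1.37, limma adjusted p = 0.998). Psmb9 stood at 0.223, 0.957, 0.494 and 0.856 FPKM in controls and 0.427, 1.48, 1.28 and 0.754 FPKM in Med13-MO, with overlap. Psmb9 shares 212 bases with the neighbouring Tap1, which stood at 0.253 ± 0.0429 and 0.718 ± 0.339 FPKM. Psmb8 stood at 0.0139, 0.0854, 0.113 and 0.086 FPKM in controls and 0.132, 0.0721, 0.137 and 0.086 FPKM in Med13-MO, also with overlap. Psmb11 stood at 0.647, 0.695, 1.22 and 0.892 FPKM in controls and 0.626, 0.615, 0.780 and 0.705 FPKM in Med13-MO.

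These low values rest on few fragments. Psmb8 had the equivalent of 1 to 10 fragments per library in controls and 5.5 to 9 in Med13-MO. Summed FPKM of Psmb8, Psmb9 and Psmb10 was 3.71 ± 0.761 against 64.5 ± 8.17 for the 3 constitutive genes in controls, and 4.08 ± 1.28 against 82.7 ± 19.7 in Med13-MO (SD, n = 4 each). The 8 fixed interferon response genes summed to 3.01 to 4.43 FPKM in controls and 5.48 to 7.12 FPKM in Med13-MO, and Ifit1 was called higher among them. Ifit1, at 0.617 ± 0.224 and 1.79 ± 0.478 FPKM, passed the filter through the Med13-MO group alone, so its call is no support for a difference. The part of the interferon response genes in the values of Psmb8, Psmb9 and Psmb10 was not tested. The testis-specific alpha subunit gene Psma8 had the equivalent of 1 to 9 fragments over the 8 libraries.

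The 19S cap gave 1 call among 17 genes (5.88%), against 17.1% of all genes tested. Of its fold changes 14 were below 0, as were 6522 of 11755 over all genes. The base holds the ATPase ring, encoded by Psmc1 to Psmc6, and none of these 6 genes passed the test (log2 fold changes -0.31 to 0.06, smallest limma adjusted p = 0.252, and 0 with an unadjusted p below 0.05). Psmd1, the scaffold that docks ubiquitin receptors, stood at 11.3, 5.70, 13.0 and 9.41 FPKM in controls and at 5.20, 5.45, 6.33 and 5.58 FPKM after Med13 morpholino. Scr-MO replicate 2 lay within the Med13-MO range, so the groups overlapped.

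The fall of Psmd1 was -0.66 ± 0.21 (log2, SE; limma adjusted p = 0.0483), and the call held in 1 of the 8 fits that left out a library, the one without Scr-MO replicate 2 (0.00445). In the other 7 the adjusted p was 0.0704 to 0.139. It was also lost with a pseudocount of 0.1 (0.0508), the main transcript only (0.0701) and protein-coding transcripts only (0.0631). Its relative Psmd2 overlapped fully (-0.07). The ratio of Psmd1 to Psmd2 was 1.56 to 1.99 in controls and 0.798 to 1.37 in Med13-MO. Gm21972, an overlapping gene on the same strand, shares 305 bases with Psmd1.

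The lid carries Psmd14, the deubiquitinase that strips ubiquitin from substrates. It stood at 37.9, 37.5, 43.9 and 42.7 FPKM in controls and at 20.3, 32.0, 30.8 and 38.0 FPKM in Med13-MO. Med13-MO replicate 4 reached the lowest controls, and the fold change of -0.44 ± 0.19 (log2, SE) did not pass (limma adjusted p = 0.130, and 0.029 with sample weights). Psmd12, a structural lid subunit, stood at 32.1, 21.2, 31.9 and 27.1 FPKM in controls and 18.6, 19.2, 21.5 and 25.1 FPKM in Med13-MO. It was not called either (-0.39 ± 0.18, limma adjusted p = 0.149), and passed with sample weights (0.00897) or without Scr-MO replicate 2 (0.0433). The lid gene with the highest FPKM was Psmd11, summed over 15 transcript rows (46.7 ± 11.8 and 47.4 ± 9.22 FPKM). Psmd3, Psmd6, Psmd7, Psmd8, Psmd11 and Psmd13 had fold changes from -0.34 to 0.06.

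Assembly chaperones hold half-built rings together. Psmg3 and Psmg4 encode PAC3 and PAC4, a pair that builds the alpha ring, as Psmg1 and Psmg2 encode the pair PAC1 and PAC2. Psmg3 stood at 3.76, 2.44, 3.64 and 3.35 FPKM in controls and at 0.424, 0.964, 1.44 and 0.748 FPKM after Med13 morpholino. All Med13-MO libraries were below all controls, and this was the largest fall among the members (-1.20 ± 0.18, log2, SE; limma adjusted p = 0.00144). The added 1 compresses a change at so low a level, and with a pseudocount of 0.1 the fold change was -1.861. Psmg3 passed the filter on low values through the control group alone, and its call held with no filter (adjusted p = 0.0131). The equivalent of 89.5 to 157.5 fragments per library lay behind the control values and of 19 to 41.5 behind the Med13-MO values. Psmg3 (chromosome 5, 139823592 to 139826885, minus strand, GRCm38) overlaps Gm26938 on the same strand, which shares 238 bases and was listed at a mean of 0.04 FPKM.

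Its partner Psmg4 stood at 1.63, 1.18, 1.48 and 3.21 FPKM in controls and 0.558, 1.47, 1.39 and 3.13 FPKM in Med13-MO, with replicate 4 highest in both groups and no call (-0.17, limma adjusted p = 0.709). The ratio of Psmg3 to Psmg4 was 2.30, 2.07, 2.46 and 1.04 in controls and 0.760, 0.657, 1.04 and 0.239 in Med13-MO. Psmg2 fell just short of the filter, with a mean of 0.877 FPKM over the 8 libraries, where Psmg4, the lowest gene inside it, had 1.76. Psmg2 stood at 1.03, 0.966, 1.51 and 0.971 FPKM in controls and 0.537, 0.967, 0.737 and 0.299 FPKM in Med13-MO. Psmg1 stood at 3.16 ± 1.44 and 3.89 ± 1.02 FPKM (SD, n = 4 each) with overlapping groups.

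The chaperones of the 19S base are encoded by Psmd5, Psmd9 and Psmd10. Psmd5 stood at 9.20, 8.13, 12.5 and 11.6 FPKM in controls and 12.2, 13.6, 12.9 and 15.6 FPKM in Med13-MO. The groups overlapped at Scr-MO replicate 3, and its fold change of 0.37 ± 0.17 (log2, SE) did not pass (limma adjusted p = 0.144). It passed with median-ratio scaling (0.0385) and with the main transcript only (0.0331). Psmd9 overlapped (9.64 ± 2.02 and 9.36 ± 1.45 FPKM), and 25.5% of its exonic bases are shared with Gm26745 on the opposite strand. Psmd10 was below the filter, at 0.696 ± 0.348 and 0.690 ± 0.219 FPKM.

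Psmf1 encodes PI31, which inhibits the 20S core in vitro. It stood at 1.81, 1.70, 2.58 and 2.59 FPKM in controls and at 6.56, 6.55, 5.48 and 7.29 FPKM after Med13 morpholino. Every Med13-MO library had over 2 times the level of the highest control, and this was the largest rise among the members (1.24 ± 0.16, log2, SE; limma adjusted p = 0.00053). Mean levels were 2.17 ± 0.482 and 6.47 ± 0.743 FPKM (SD, n = 4 each), and the log2(FPKM + 1) scale understates the change of a gene this low. Psmf1 lies on chromosome 2, 151715812 to 151744186, minus strand (GRCm38). The Psmf1 stretch printed above, taken before a RefSeq start site, lies inside this span. The call held in all 16 alternative fits in which it was tested.

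Psme1 and Psme2 encode the PA28 alpha and beta subunits, which form a mixed ring that caps the core. Psme1 stood at 4.59, 2.64, 3.88 and 3.47 FPKM in controls and at 1.22, 1.52, 2.59 and 1.26 FPKM in Med13-MO. The highest Med13-MO value lay just under the lowest control, and the fall was -0.82 ± 0.19 (log2, SE; limma adjusted p = 0.0137). The level of Psme1 was summed over 12 transcript rows, none of which passed the filter alone. It rested on the equivalent of 94.5 to 145 fragments per library in controls and of 33.5 to 59 in Med13-MO. Psme2 went the other way by estimate and was not called, at 9.47 ± 2.64 and 10.8 ± 2.18 FPKM (0.19, limma adjusted p = 0.564). The ratio of Psme1 to Psme2 was 0.471, 0.443, 0.313 and 0.355 in controls and 0.116, 0.161, 0.186 and 0.138 in Med13-MO, without overlap. Psme2 shares 716 bases at 99.302% identity with Psme2b, listed at 0.454 ± 0.208 and 0.516 ± 0.130 FPKM, so reads of this pair can be mixed.

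The nuclear activator genes were not called. Psme3, which encodes PA28 gamma, stood at 30.7 ± 1.86 and 34.2 ± 5.48 FPKM (SD, n = 4 each; 0.14, limma adjusted p = 0.562). Psme4 encodes PA200, known for degrading acetylated histones in testis. By summed FPKM it ranked 3 among the members in controls, at 47.0 ± 9.47 and 37.7 ± 7.92 FPKM (-0.31, limma adjusted p = 0.307).

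**Figure D3:**
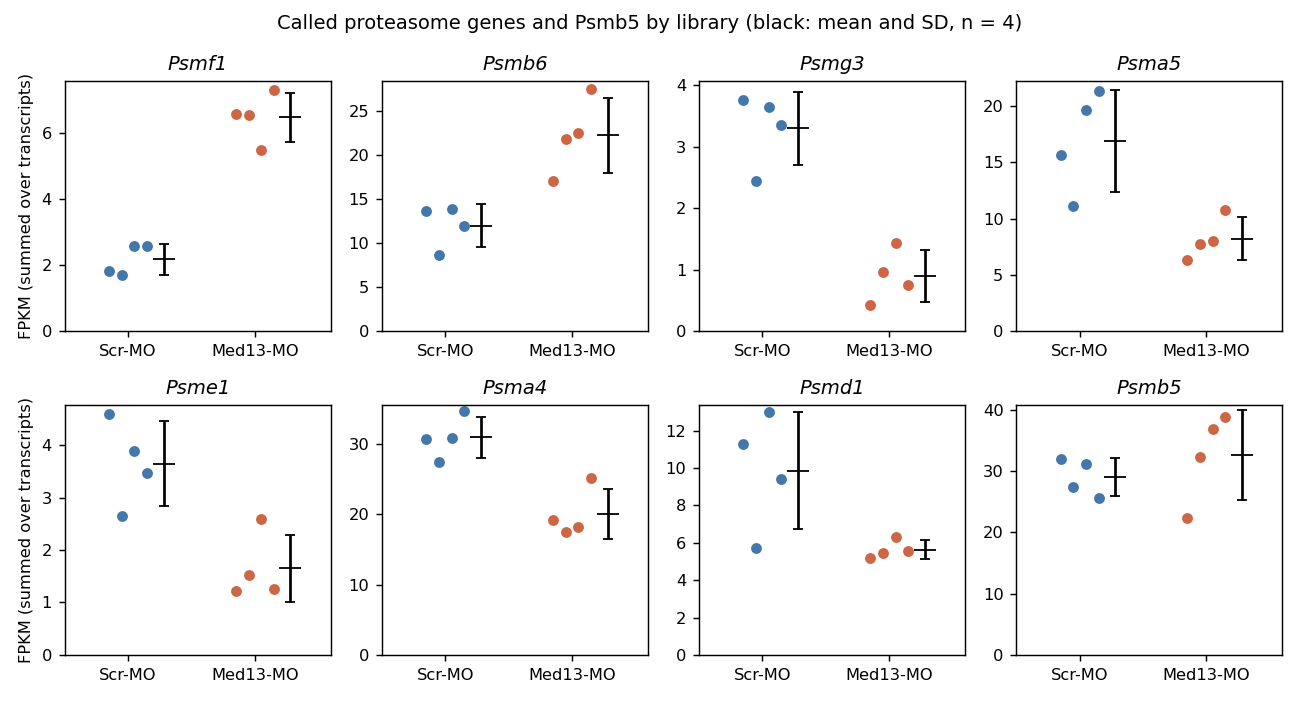
FPKM of the 7 called genes and of Psmb5 (y axis, from 0, summed over transcripts) in the 2 groups (x axis), with 1 point per library and the mean and SD in black (n = 4). Psmf1 and Psmb6 are higher in all Med13-MO libraries, Psmg3, Psma5, Psme1 and Psma4 lower in all, and Psmd1 and Psmb5 overlap between the groups.

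At the level of single transcripts, 123 member rows with a mean of at least 1 FPKM were tested among 21052 rows. 8 rows of 6 genes were called (6.5%), 5 higher and 3 lower, against 15.7% of all rows, 8.17% higher and 7.57% lower. Psmb6 carried 3 of them, the coding model Psmb6-201 (8.12 ± 2.06 to 15.4 ± 2.71 FPKM) and 2 retained-intron models, all higher. The coding models Psma4-201, Psma5-201 and Psmg3-202 were lower, and Psmf1-202 and Psmd5-202 higher. Psmf1-202, Psmg3-202 and 1 of the retained-intron models of Psmb6 passed the filter only through the group in which they were high, so their calls are no support for a difference. The count fell to 5 without Scr-MO replicates 1, 3 or 4 or Med13-MO replicates 2 or 3, and rose to 12 without Scr-MO replicate 2.

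Psmf1-202 had a mean of 0.456 ± 0.131 FPKM in controls and of 2.29 ± 0.248 FPKM in Med13-MO (SD, n = 4 each). It was 21% of the FPKM of Psmf1 in controls and 35.3% in Med13-MO. Protein-coding rows together held 40.0% ± 4.01 of the FPKM of Psmf1 in controls and 56.3% ± 4.71 in Med13-MO (SD, n = 4 each). In Psmb6 the share was 67.3% ± 4.24 and 69.9% ± 1.33. Psmd5-202 stood at 3.82 ± 1.00 and 6.22 ± 0.743 FPKM (0.60 ± 0.17, limma adjusted p = 0.0327). Isoforms share exons, so these shares depend on how the authors assigned fragments.

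The constitutive subunits, present in equal numbers in the finished core, differed widely in FPKM summed over transcript rows. The number of rows differs by gene: Psma3 has 9, Psmd11 15 and Psmb5 1. A fragment may count in several isoforms, which can raise the sum of a gene with many rows. Its part in the ratios and the order below was not tested. In controls the means of the 14 constitutive 20S genes ran from 12 FPKM for Psmb6 to 82.0 FPKM for Psma3, a ratio of 6.85. After Med13 morpholino they ran from 8.22 FPKM for Psma5 to 66.1 FPKM for Psma3, a ratio of 8.04. In the 19S cap, means ran from 4.05 FPKM for Psmc3 to 46.7 FPKM for Psmd11 in controls, a ratio of 11.5. Ordered by control mean, 47 of 49 neighbouring members overlapped in their control values. Psma3 above Psma6, and Psme2b above Psmb8, were the 2 that did not.

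Libraries of the same group differed in the general level of the members. The median deviation of the 43 tested genes from their own mean over the 8 libraries was 0.13, -0.27, 0.28 and 0.21 in Scr-MO replicates 1 to 4 and -0.41, -0.12, 0.01 and 0.25 in Med13-MO replicates 1 to 4, on the log2(FPKM + 1) scale. Over all genes tested these medians were 0.01, -0.16, 0.10 and 0.09 in Scr-MO and -0.12, -0.05, 0.00 and 0.07 in Med13-MO. In Med13-MO replicate 1, 7 of the 43 genes were above their own mean, and in replicate 4 of the same group 35 were. Replicates 1 and 4 of Med13-MO were 282 and 521 FPKM in the sum of the 14 constitutive 20S genes, wider apart than the group means of 415 ± 60.8 and 391 ± 98.2 FPKM (SD, n = 4 each).

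The sign of the median fold change rested on these libraries. It was -0.099 with all libraries, 0.017 without Med13-MO replicate 1, -0.278 without Med13-MO replicate 4, -0.255 without Scr-MO replicate 2 and -0.046 without Scr-MO replicate 3, where all genes had -0.057, -0.016, -0.093, -0.100 and -0.018. Psmf1, Psmg3, Psmb6, Psma5 and Psme1 were called in each of the 8 fits that left out a library. The order of libraries was not the same in each gene: Psmf1 was high and Psmg3 low in Med13-MO replicates 1 and 4 alike.

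**Figure D4:**
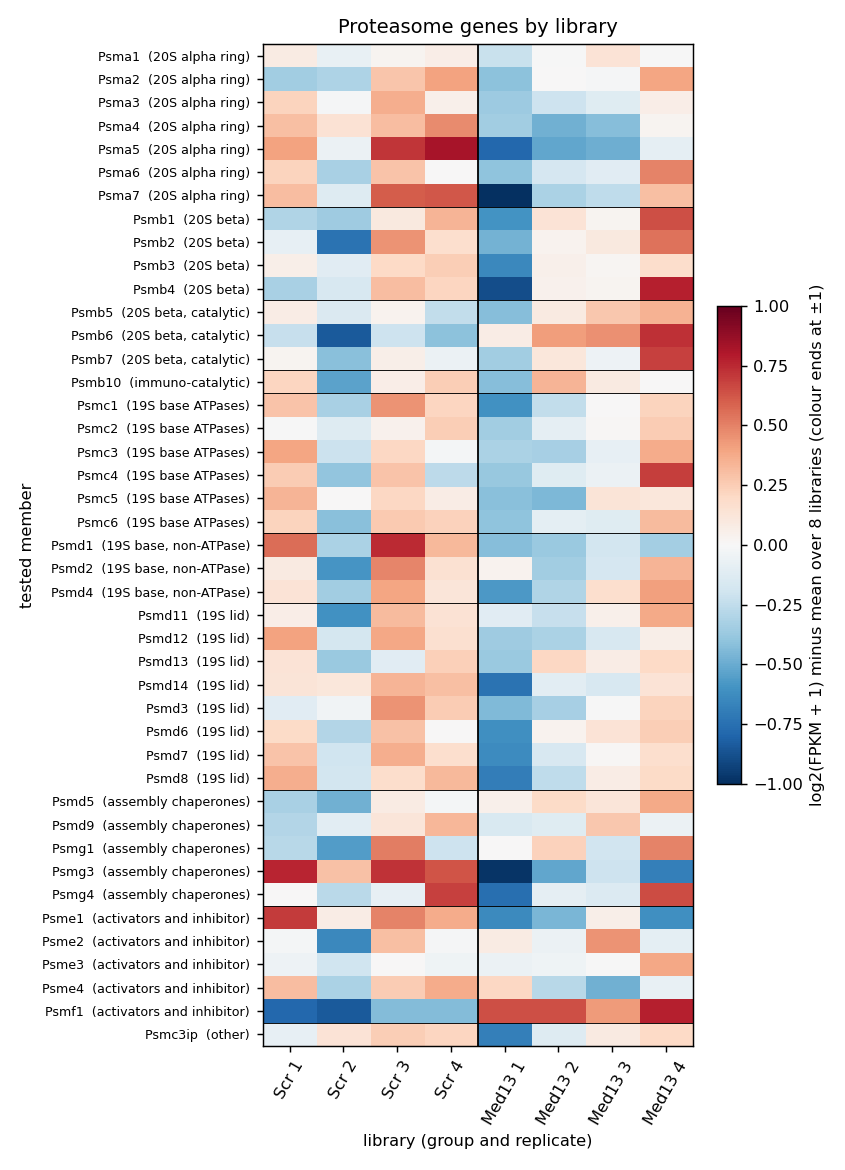
Deviation of each tested proteasome gene (rows, by role) from its own mean over the 8 libraries (columns), in log2(FPKM + 1), with the colour scale ending at ±1. Most rows are blue in Scr-MO replicate 2 and Med13-MO replicate 1 (medians -0.27 and -0.41) and red in Scr-MO replicate 3 and Med13-MO replicate 4 (0.28 and 0.25), while Psmf1 and Psmg3 divide by group.

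Proteasome proteins whose genes do not carry a Psm symbol were read from a fixed list of 12 names, of which 9 were in the table and tested. AI314180, an older symbol of Ecpas, encodes an adaptor that binds 26S proteasomes, the homologue of yeast Ecm29. It rose from 15.1, 9.50, 12.6 and 13.3 FPKM in controls to 38.9, 28.6, 30.1 and 36.6 FPKM in Med13-MO (1.35 ± 0.18, log2, SE; limma adjusted p = 0.000602), without overlap. Usp14, a deubiquitinase that binds the 19S cap, fell from 28.3, 37.0, 28.6 and 26.5 FPKM to 15.2, 15.8, 18.7 and 20.8 FPKM (-0.74 ± 0.17, log2, SE; limma adjusted p = 0.0117), also without overlap. Its call was lost with the main transcript only (0.170). The other 7, among them the ubiquitin receptor Adrm1 (33.1 ± 8.41 and 27.7 ± 9.40 FPKM) and the core chaperone Pomp (24.9 ± 7.29 and 22.1 ± 8.33 FPKM), were not called. The called genes were 22.2% of the 9 tested, against 17.1% of all genes tested.

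Of 7 tested genes of the NFE2L1 pathway, 1 passed the test (14.3%, against 17.1% of all genes tested). The small partner Maff fell from 1.90 ± 0.334 to 0.863 ± 0.316 FPKM (-0.65 ± 0.16, log2, SE; limma adjusted p = 0.0161), a call lost with no filter on low values (0.0561) or without Med13-MO replicate 2 (0.0623). Maff passed that filter through the control group alone, so its call is no support for a difference. Nfe2l1 itself, at 15.8 ± 2.57 FPKM in controls and 14.8 ± 1.59 FPKM in Med13-MO, was not called (log2 fold change -0.08, adjusted p = 0.752 in limma). Of 8 ubiquitin and E1 genes 0 passed in this limma fit, although Ubb and Uba6 had an unadjusted p below 0.05. Uba6 had the smallest adjusted p in limma (log2 fold change -0.51, adjusted p = 0.0638).

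Of 14 tested genes of substrate delivery, 2 fell and 0 rose (14.3% called, against 17.1% of all genes tested). Vcp, the segregase that extracts ubiquitin-tagged proteins, stood at 17.7 ± 1.71 and 11.2 ± 1.54 FPKM (SD, n = 4 each; -0.62 ± 0.15, log2, SE; limma adjusted p = 0.018). Its groups did not overlap, and the call was lost without Scr-MO replicate 3 (0.0571) or Med13-MO replicate 2 (0.0645). Zfand5, a zinc finger protein that stimulates the proteasome, stood at 196 ± 67.6 and 118 ± 18.2 FPKM (-0.69 ± 0.22, log2, SE; limma adjusted p = 0.0489). That call held in 2 of the 8 fits that left out a library, those without Scr-MO replicate 4 (0.0414) or Med13-MO replicate 4 (0.0442), and was lost in the others, with adjusted p up to 0.118. It was also lost with median-ratio scaling (0.0974), with a pseudocount of 0.1 (0.0501) and with no filter on low values (0.152).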

How the data were processed

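Per the labels' protocols, RNA of 8 pools of 2-cell embryos was amplified (Ovation RNA-Seq System) before TruSeq libraries were made. The authors deposited FPKM per Ensembl transcript. The submitters' processing notes name BWA and mm10, but versions, counter, annotation and strandedness were not given in the sources used here. The 3758 rows whose symbol holds a hyphen are moved by 1 column in the deposited table and were left out, among them 4 proteasome pseudogene symbols. 1 column (Scr-MO replicate 1) was recorded under another unit name only because it holds text in those rows. Columns were matched by title, and 0 were left unmatched.

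Rows were summed per symbol, and genes with a mean of at least 1 FPKM entered limma (version 3.58.1, R 4.3.3) on log2 values of the deposited FPKM with 1 added. The two-sided test used a mean-variance trend and no covariate, with Benjamini-Hochberg adjustment over all genes and a threshold of 0.05. The filter lets a gene pass through 1 group alone. The same was done for transcript rows. Collections are the replicates. Low values times transcript length were multiples of 0.5 fragments for 94.3% to 94.5% of values up to 20 fragments (tolerance 0.005), which gave the library totals on the assumption that the spacing is 0.5 of a fragment. These fragments carry no molecular identifiers, so totals limit precision by counting only, and a fragment may count in several isoforms. Lengths, biotypes and coordinates came from GENCODE M21 (GRCm38), matched by 98.7% of rows used, and promoters from RefSeq (GRCm38.p6). Copies were sought with BLAST 2.17.0 (at least 95% identity over 200 bases).

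The members, lists and motifs were chosen with earlier results of these data known. Values are given in every library for the 12 members with the smallest p and for Psmb5 to Psmb11. Psmg4, Psmg2 and the ratios were added after their values were seen. The scripts were tested on simulated data.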

Additional observations from a re-analysis of the deposited data

Results flagged for a closer look

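In 3 of 100 sets of 4 libraries (50 genes in 2 groups) 1 library lay far from the others by Dixon's criterion, where chance gives about 1 in 20. Psmc6, a 19S ATPase gene, was lowest in Scr-MO replicate 2, at 3.44 FPKM against 5.93 to 6.12 FPKM in the other controls. Psme3 was highest in Med13-MO replicate 4, at 42.3 FPKM against 30.8 to 32.2 FPKM. Psmg2, below the filter on low values, was highest in Scr-MO replicate 3, at 1.51 FPKM against 0.966 to 1.03 FPKM. Scr-MO replicate 2 and Med13-MO replicate 4 are also the libraries in which most proteasome genes were low and high within their groups.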

How the results depend on the processing

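In the main fit 7 of 43 tested members and 2010 genes were called (17.1% of all genes tested). With no filter on low values these counts were 3 of 50 and 1012 (2.89%). At a mean of at least 5 FPKM they were 4 of 36 and 1137 (20.5%). With sample weights they were 14 of 43 and 4336 (36.9%), and 12 of the 14 members were lower. Higher calls were 54.3% of all called genes, 39.5% with sample weights and 43.7% without Scr-MO replicate 2. At 5 FPKM, Psmf1, Psmg3 and Psme1 were no longer tested. Fits that left out 1 library gave 5 to 9 of 43 members and 956 to 2404 genes (8.13% to 20.3%). In these fits 5 to 12 member rows were called against 8, and 1701 to 4062 rows against 3315. At 5 FPKM 4 member rows were called, and 1223 of the 6402 rows tested. With no filter, Psma5, Psme1, Psma4 and Psmd1 missed the threshold (adjusted p = 0.0558, 0.0556, 0.0585 and 0.141). Psmb10, at a log2 fold change of 0.001, turned to -0.003 with quantile normalization and ran from -0.178 to 0.143 over the fits without 1 library. The cause of these shifts was not tested beyond the fewer or more genes tested. No paired analysis was run, because the labels give the groups no shared replicate numbers. The replicate numbers used here follow the order of the samples and pair nothing. The library numbers in the titles alternate between the groups, but no label says that neighbours were collected together. What a fit pairing neighbours would change was not tested. Depth limits Psma8 and Psmb8, each at 10 fragments or fewer per library.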
